A study of Homo sapiens with 6 samples.

Results

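The genes described here are the effectors and the negative feedback loop of canonical Wnt signalling: CTNNB1, which encodes beta-catenin; the DNA-binding TCF/LEF factors LEF1, TCF7, TCF7L1 and TCF7L2; and the feedback targets AXIN2, NKD1, RNF43, ZNRF3 and LGR5. These genes, and the further lists below, were chosen with earlier results of these data known. Their probes were taken by gene symbol from the array's platform annotation, and not by any measured value. That annotation named 9 probes for 8 of these 10 genes, out of 24526 probes and 16922 named genes on the array. It named no probe for TCF7 or ZNRF3, which were not analysed here. Of the 9 probes, 4 were above background (detection p under 0.01) on at least 3 of the 6 arrays and were tested, 1 each for CTNNB1, TCF7L1, TCF7L2 and AXIN2. The other 5 were the second CTNNB1 probe and those of LEF1, NKD1, RNF43 and LGR5.

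In the canonical pathway, a Wnt ligand bound to its receptors stops a destruction complex, built around the scaffold protein Axin, from marking beta-catenin for degradation. Beta-catenin then enters the nucleus, binds TCF/LEF factors on DNA and turns their target genes on. Several of these targets act back on the pathway, so their transcripts are widely used as readouts of it. In the embryo, Wnt signalling with Nodal and BMP sets up the primitive streak, from which endoderm and mesoderm arise.

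HES3, a human embryonic stem cell line, was cultured on irradiated human feeder cells, and most feeders were then strained out, a removal the labels put at typically 90%. After 2 days on fibronectin the cells received Activin A, a ligand of the Nodal branch of signalling, or Activin A with BMP4, a bone morphogenetic protein, for 3 days, each factor at 50 ng/ml. RNA of 3 samples per treatment was hybridised to Illumina bead arrays, 1 array per sample. The design text calls the replicates biological but does not say that they were separate cultures. The p-values set the treatment difference against the spread between these samples only, and may not carry over to new cultures. The treatment text is the same for all samples and names both factors, so the groups rest on the titles. No Wnt ligand or Wnt inhibitor is named for either group.

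Between 9348 and 10460 probes were above background per array, and normalized values correlated at 0.985 or more within treatments and at 0.926 to 0.945 between them. Of 8186 genes tested by limma, 17.6% were higher and 18.1% lower with BMP4 at an adjusted p under 0.05 (1775 and 1806 of 10116 probes), and the median log2 difference over genes was 0.00193. Each difference below is the level with both factors minus that with Activin A alone. All Activin A arrays lay on 1 chip and the Activin A + BMP4 arrays on the other 2, so chip and treatment cannot be told apart.

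Markers of the cell types the culture could hold moved with the treatment. All 12 tested fibroblast feeder markers of 14 were lower with BMP4 (18.1% of all genes were lower), with a median log2 difference of -1.88. Their summed normalized signal was 51180.5 to 63961 on the Activin A arrays and 15735 to 16814 on the Activin A + BMP4 arrays, and POSTN was the named feeder marker not above background on any array. Definitive endoderm markers summed to 7382 to 7833 with Activin A and 20192.0 to 21565 with both factors, with 5 of 7 tested genes higher (17.6% of all genes were higher). All 4 tested markers of primitive streak and early mesoderm were higher, with sums of 666 to 1199 and of 3546 to 3900 and with TBX6 and FOXF1 not above background anywhere. APLNR, 1 of these 4, was above background on 0 Activin A arrays and 3 with both factors. It was thus tested only through the treatment where it was high. Pluripotent cell markers summed to 10445 to 11026 and to 7167 to 8282, with 5 of 7 tested genes lower and LIN28A higher. Amnion and trophoblast markers summed to 1592 to 1923 and to 2402 to 2581, and 3 of 6 tested genes were higher and 2 lower. HAND1, also 1 of the 4 streak markers, had the highest mean of the 6 with both factors. Its mean normalized log2 level was 8.71 with Activin A and 10.38 with both, so the sum does not show a rise of the whole list. GATA3 was above background only with both factors and KRT7 only with Activin A, so each was tested through 1 treatment alone. In the neural list 5 of 8 genes, PAX6 and SOX1 among them, were below background on all arrays, and of the 3 tested OTX2 was higher and SOX3 and NES were lower. SOX3 was above background only with Activin A, so it too was tested through 1 treatment alone. The neural sums were 2320 to 2388 and 2628 to 2913. OTX2 had the highest mean of the 3 with both factors, at a normalized log2 level of 10.91, against 9.99 with Activin A. This sum, too, does not show a rise of the whole list. Of 4 tested leukocyte markers 2, LCK and CD14, were lower, and PTPRC and CD3D were below background on all arrays. With both factors the tested LCK probe was above background on 2 arrays and that of CD14 on 1. The leukocyte sums, 846 to 1236 and 903 to 1244, overlapped. For all the marker lists, the shares over all genes to set beside these counts are 17.6% higher and 18.1% lower. The arrays read whole cultures, where fewer cells of a type and less RNA per cell cannot be told apart. Whether the lower feeder signal had a part in the differences below was not tested.

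**Figure D1:**
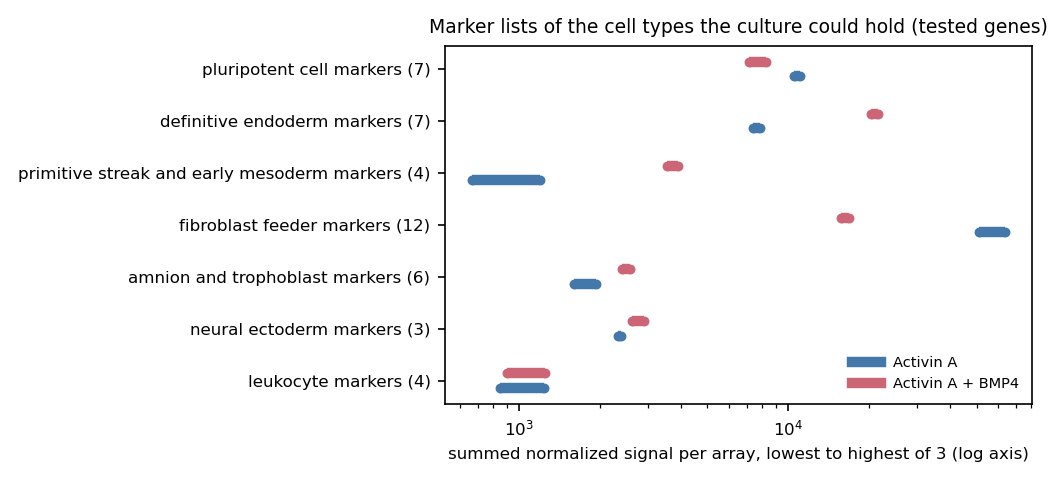
Summed normalized signal of the tested genes of each marker list, drawn for each treatment from the lowest to the highest of 3 arrays on a log axis, with the number of tested genes in brackets. The feeder sums with Activin A (51180.5 to 63961) lie above those with Activin A + BMP4 (15735 to 16814), the endoderm, streak, amnion and neural sums lie the other way, and the leukocyte sums overlap. HAND1 is counted in both the streak and the amnion sums. Neither the amnion nor the neural sum shows a rise of its whole list, and OTX2 was the only tested neural gene that was higher.

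Among the feedback targets, AXIN2 was higher with BMP4. AXIN2 encodes a scaffold of the destruction complex, is a close relative of AXIN1 and is itself switched on by beta-catenin, which makes it the usual transcript readout of the pathway. Its deposited signals were 540.2, 394.4 and 481.4 on the Activin A arrays and 995.9, 942.1 and 1156.1 on the Activin A + BMP4 arrays. The groups did not overlap, and the lowest array with BMP4 exceeded the highest without it. How many of all probes separate in this way was not counted, so such an order is given here and below as a description. On the normalized log2 scale the mean level was 8.90 ± 0.11 (SD, n = 3) without BMP4 and 10.06 ± 0.05 (SD, n = 3) with it. The log2 difference was 1.16 ± 0.10 SE, or 2.24-fold higher (limma adjusted p = 6.82e-05; 95% confidence interval of the log2 difference 0.93 to 1.40). AXIN2 was the single member of the 4 tested that passed the threshold upward, and 0 of 4 passed downward, beside 17.6% and 18.1% of all genes. At an unadjusted p under 0.05, AXIN2 was still the only one of the 4 that was higher, and 0 were lower.

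LGR5 and NKD1, also feedback targets, gave dim signals, mostly below background. They were higher on every Activin A + BMP4 array than on any Activin A array. Order alone is weak here, since 3 against 3 arrays cannot give a two-sided permutation p under 0.1. LGR5 encodes a receptor for R-spondins, secreted proteins that keep Wnt receptors on the cell surface. Its signals were 28.6, 2.3 and 9.4 with Activin A and 39.2, 52.0 and 60.1 with both factors. Detection called 2 of the 3 arrays with BMP4 and 0 of those without it, so its Activin A level is only a bound. Its mean with BMP4, the undetected array included, was 1.01-fold that bound, or 1.007-fold under normexp. That ratio takes no account of spread and is not a minimum rise. NKD1 encodes an inhibitor that binds Dishevelled, the protein that relays the signal inside the cell. Its signals were 19.6, 7.3 and 16.2 with Activin A and 30.7, 30.4 and 53.0 with both factors, and 1 array, the third with BMP4, was above background. No bound on its fold could be set, because its mean with BMP4 was under the dimmest detected signals of the Activin A arrays. Neither probe passed the filter on dim probes. With all 24526 probes tested instead, both passed the threshold (limma adjusted p = 0.00758 for LGR5 and 0.0177 for NKD1), beside 7.64% of all 16922 genes higher and 8.29% lower in that fit, where 0 members were lower. No size of a difference is given for LGR5 or NKD1, because both were below background on all Activin A arrays. The NKD1 p compares signals of which 1 of 6 was detected.

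RNF43, a membrane ubiquitin ligase that removes Wnt receptors from the cell surface, was not above background on any array. Its signals were 21.4, 13.4 and 28.4 with Activin A and 23.5, 23.8 and -6.2 with both factors. The groups overlapped, and the negative value is a probe dimmer than the background that was subtracted. As both groups were below background, no difference is given.

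**Figure D2:**
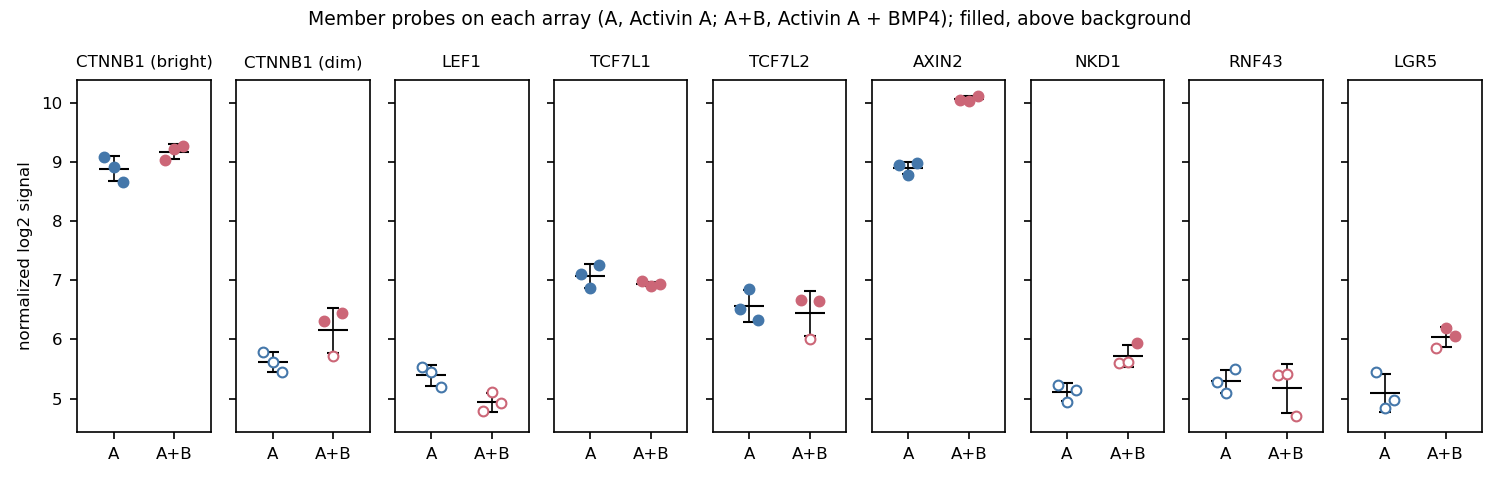
Normalized log2 signal of the 9 member probes on each array, by treatment, with the mean (horizontal line) and SD (error bar, n = 3); filled points were above background and open points were not. Each panel is read on its own, since probes differ in brightness; AXIN2 stands at 8.90 and 10.06 with no overlap, the TCF7L1 and TCF7L2 groups overlap, and all LEF1 and RNF43 points are open.

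The TCF/LEF factors with a tested probe did not pass the threshold in either direction. TCF7L1, also called TCF3, acts mainly as a repressor of Wnt targets in pluripotent cells. Its signals were 134.5, 92.8 and 134.3 with Activin A and 103.6, 95.8 and 124.4 with both factors, and the groups overlapped. Its mean level was 7.08 ± 0.20 (SD, n = 3) and 6.94 ± 0.04 (SD, n = 3) on the normalized log2 scale. The log2 difference was -0.14 ± 0.12 SE, with a 95% confidence interval of -0.42 to 0.15 (limma adjusted p = 0.426).

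TCF7L2, also called TCF4, can activate or repress targets, depending on its partners. Its signals were 84.0, 91.7 and 63.7 with Activin A and 80.9, 44.3 and 99.8 with both factors. The second Activin A + BMP4 array was the lowest of the 6 and the single one not above background, and the third was the highest. The log2 difference was -0.12 ± 0.21 SE, with a 95% confidence interval of -0.60 to 0.35 (limma adjusted p = 0.681). Its sign rested on single arrays: without the second Activin A array it was 0.02, and without the second Activin A + BMP4 array 0.10. For both factors the interval leaves room for differences of either sign, and for TCF7L2 the widest.

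LEF1, an activating factor that is itself a Wnt target in many tissues, was not above background on any array. Its signals were 31.9, 25.5 and 18.2 with Activin A and -1.4, 12.4 and 6.1 with both factors. Every Activin A array thus read higher than every Activin A + BMP4 array, but nothing is read from the order of undetected signals. With all probes tested LEF1 did not pass the threshold (limma adjusted p = 0.0569). As both groups were below background, no difference is given. A comparison of LEF1 with TCF7L1 within arrays was planned and is not reported, because it has no reading with LEF1 at background.

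CTNNB1 itself had 2 probes of unlike brightness. The bright probe gave signals of 587.8, 433.3 and 384.2 with Activin A and 480.9, 528.7 and 647.9 with both factors, and the groups overlapped. Its mean was 8.88 ± 0.21 (SD, n = 3) and 9.17 ± 0.12 (SD, n = 3) on the normalized log2 scale. The log2 difference was 0.30 ± 0.13 SE, with a 95% confidence interval of -0.01 to 0.60 (limma adjusted p = 0.123). The dim probe was detected on 2 arrays with BMP4 and on 0 without it, with signals of 43.1, 31.2 and 27.0 against 59.7, 34.0 and 82.9. Its groups overlapped too. The mean with BMP4, an undetected array included, was 1.10-fold the detection bound of the Activin A arrays, or 1.05-fold under normexp. That ratio takes no account of spread and is not a minimum rise. With all probes tested the dim probe did not pass the threshold (limma adjusted p = 0.118). Beta-catenin is regulated mainly through the stability of the protein, which arrays of RNA do not measure.

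The genes whose arrays most resembled a member's were found by Pearson correlation of normalized log2 values over the 6 arrays, as a description. For AXIN2 they were MKRN1 (r = 0.9996) and SUOX (r = 0.9988), and 753 of 10114 probes had an r over 0.95. These 6 points fall into the 2 treatments, so any gene with a clean rise scores high. For CTNNB1 they were AFMID (r = 0.992) and ZNF428 (r = 0.988), with 37 probes over 0.95. For TCF7L1 they were CSNK2A1 (r = 0.982) and FUCA1 (r = 0.9745), with 15 such probes, and for TCF7L2 FSD1L (r = 0.963) and RNF146 (r = 0.949), with 1.

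Other targets of the pathway went both ways. Of a list of 24 further Wnt target genes, 14 were tested, of which 4 were higher (28.6%, beside 17.6% of all genes) and 6 lower (42.9%, beside 18.1%) with BMP4, and the median log2 difference was -0.01. Among those that rose, TBXT, the brachyury gene of the primitive streak, was 4.09-fold higher, with signals of 65.8 to 110.8 with Activin A and 384.9 to 401.9 with both factors. SP5, a zinc finger factor induced by Wnt in many cell types, was 2.00-fold higher (log2 difference 1.00 ± 0.13 SE, limma adjusted p = 6.09e-04). SP5 signals were 52.9, 49.2 and 42.2 with Activin A, of which 1 was above background, and 106.0, 118.9 and 109.4 with both factors. EPHB3, an ephrin receptor, was 1.92-fold higher, above background on 2 of the 3 Activin A arrays. Both sizes depended on the background correction: under normexp the log2 differences were 0.58 for SP5 and 0.54 for EPHB3, and both still passed the threshold. NKD2, the relative of NKD1, was 1.44-fold higher (limma adjusted p = 0.00962), with signals of 166.6 to 220.7 and of 255.2 to 350.4. TBXT is also 1 of the 4 streak markers that were higher. With all probes tested in place of the filtered set, 7 genes of this list passed the threshold upward. The added 3, SP8, DKK1 and NOTUM, were below background on all Activin A arrays, and NOTUM on all 6.

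The 6 targets that fell lay, like those that rose, beside lower feeder and pluripotent marker sums and higher endoderm and streak marker sums with BMP4, whose part in either was not tested. DKK4, a secreted Wnt antagonist, gave signals of 3236.4 to 4655.4 with Activin A and 681.3 to 726.4 with both factors, a log2 difference of -2.40 ± 0.12 SE (limma adjusted p = 7.43e-06). CCND1, which encodes cyclin D1, was 2.63-fold lower, with signals of 13332.3 to 13692.2 and of 4413.1 to 4832.9. CD44, a hyaluronan receptor, was 2.62-fold lower by its brightest probe, and both of its other tested probes were also lower. Of those, 1 was above background on 3 Activin A arrays and 0 with BMP4, so it was tested only through the treatment where it was high. MMP7, a matrix metalloproteinase, was detected on all Activin A arrays and on 0 of those with BMP4. It was thus tested only through the treatment where it was high, and it is counted among the 6 that fell. Its mean with Activin A was 1.503-fold the detection bound of the Activin A + BMP4 arrays, or 1.26-fold under normexp. That ratio takes no account of spread and is not a minimum fall. APCDD1, a membrane inhibitor of Wnt, and MYC, named here outside the rule for naming genes, had log2 differences of -1.32 and -0.87. Fibroblasts also make CD44 and cyclin D1, and how much of either signal came from feeders was not tested.

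Promoter sequence was set beside these genes to show whether the short motif that TCF/LEF factors recognise lies near their start sites. The motif was searched as CTTTG followed by 2 bases that were each A or T, on both strands, in windows from 250 bases before to 50 after a RefSeq start (GRCh38.p14). At least 1 match was in 13.8% of all 35116 windows, in 7 of 19 windows of the other target list (16 genes matched), in 1 of 27 windows of the receptor and destruction complex, in 2 of 35 windows of the nuclear partners, and in 2 of 10 windows of the members (6 genes matched: CTNNB1, LEF1, TCF7, TCF7L1, TCF7L2 and RNF43). Windows of AXIN2, NKD1, ZNRF3 and LGR5 were not used here. The windows of the 3 target genes that passed the test and held a match, SP5, TBXT and MMP7, and the TCF7L2 window with a match are shown in transcript direction, with the matched bases in capitals.
SP5, chr2:170715087-170715386, plus strand: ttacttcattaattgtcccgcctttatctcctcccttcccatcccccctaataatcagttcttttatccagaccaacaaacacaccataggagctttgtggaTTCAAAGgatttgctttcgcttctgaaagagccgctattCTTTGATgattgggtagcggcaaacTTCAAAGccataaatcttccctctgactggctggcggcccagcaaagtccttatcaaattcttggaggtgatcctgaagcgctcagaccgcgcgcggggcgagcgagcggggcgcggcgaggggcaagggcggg
TBXT, chr6:166167802-166168101, minus strand: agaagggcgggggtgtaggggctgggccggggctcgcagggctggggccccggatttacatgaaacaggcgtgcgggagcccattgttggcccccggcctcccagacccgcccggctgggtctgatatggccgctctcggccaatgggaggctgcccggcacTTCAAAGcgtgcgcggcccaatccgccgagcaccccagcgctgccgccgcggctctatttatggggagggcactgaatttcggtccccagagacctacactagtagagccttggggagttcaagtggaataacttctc
MMP7, chr11:102530698-102530997, minus strand: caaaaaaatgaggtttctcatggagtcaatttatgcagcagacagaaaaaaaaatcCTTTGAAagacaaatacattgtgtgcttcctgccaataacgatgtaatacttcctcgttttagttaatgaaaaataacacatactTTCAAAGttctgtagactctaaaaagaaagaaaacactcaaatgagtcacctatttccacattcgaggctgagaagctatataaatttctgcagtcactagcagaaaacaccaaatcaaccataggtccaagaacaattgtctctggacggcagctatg
TCF7L2, chr10:113126383-113126682, plus strand: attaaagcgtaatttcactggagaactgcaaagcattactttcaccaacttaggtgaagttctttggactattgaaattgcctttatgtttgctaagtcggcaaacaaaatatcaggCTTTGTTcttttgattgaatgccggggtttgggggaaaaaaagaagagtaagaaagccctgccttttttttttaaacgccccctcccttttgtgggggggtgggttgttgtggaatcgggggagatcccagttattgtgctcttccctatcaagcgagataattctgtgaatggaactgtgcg

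The SP5 window held 3 matches that do not overlap, beginning 148, 109 and 84 bases before the start site. The TBXT window held 1, beginning 88 bases before, and the other TBXT start in RefSeq held 0. The MMP7 window held 2, beginning 194 and 109 bases before its start. SP5 and TBXT were higher with BMP4 and MMP7 was lower. MMP7 was tested only through the treatment where it was high, so no direction is read for genes with a match. EPHB3 and NKD2, which rose, and CD44 and APCDD1, which fell, had no match in these windows. Windows of DKK4, CCND1 and MYC were not used here. The TCF7L2 window is that of 1 of its 3 RefSeq starts, with 1 match 133 bases before it. A match of 7 letters is a description of the sequence and does not show that a factor binds there.

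Genes that work with beta-catenin and TCF/LEF in the nucleus were mostly higher or not past the threshold. Of 20 listed, 16 were tested, of which 8 were higher (50%, beside 17.6% of all genes) and 1 lower (6.25%, beside 18.1%), with a median log2 difference of 0.35 beside 0.00193. HIPK2, a nuclear kinase that acts on TCF/LEF factors, was 2.08-fold higher, with signals of 128.4 to 147.3 and of 262.0 to 365.1. JUP, which encodes plakoglobin, the closest relative of beta-catenin and a part of desmosomes, was 2.00-fold higher by its brightest probe (limma adjusted p = 1.23e-04). Its second tested probe was also higher (limma adjusted p = 0.00237), but was above background on 1 Activin A array and 3 with BMP4. That probe passed the filter through the arrays with BMP4 and adds no support. The third JUP probe was not above background on any array. TLE2, a Groucho corepressor that TCF/LEF factors bind in the absence of beta-catenin, was 1.59-fold higher. CTBP1, another corepressor, was 1.57-fold higher by its brightest probe (log2 difference 0.65), while its other probes differed by 0.07 and 0.01 and did not pass. TLE4, also a Groucho corepressor, was 1.41-fold lower (log2 difference -0.49 ± 0.10 SE, limma adjusted p = 0.00497). TLE1, BCL9, TLE5 and CREBBP, named outside the rule, also rose, by log2 differences of 0.55, 0.40, 0.38 and 0.32, and the last 3 lost the threshold under some alternatives. Both coactivators and corepressors were thus among those that rose. Without the first Activin A array, 5 of the 16 genes were higher and 2 lower.

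In the receptor and destruction complex, LGR4 was higher and GSK3B and CSNK1A1 were lower. Of 26 listed genes, 12 were tested, of which 1 was higher (8.33%, beside 17.6% of all genes) and 2 lower (16.7%, beside 18.1%), and the median log2 difference was -0.03. LGR4, the relative of LGR5 and likewise an R-spondin receptor, was 1.74-fold higher (log2 difference 0.80 ± 0.13 SE, limma adjusted p = 0.00206). LGR4 signals were 150.9, 133.6 and 118.4 with Activin A and 225.0, 266.0 and 240.2 with both factors, without overlap. GSK3B, a kinase that marks beta-catenin for destruction, was 1.45-fold lower, with signals of 312.3 to 436.5 and of 222.2 to 256.2. CSNK1A1, the kinase that primes that step, was 1.29-fold lower by its brightest probe (limma adjusted p = 0.0231, and up to 0.0688 with 1 array left out). Of its 2 other tested probes, 1 passed and 1 did not (limma adjusted p = 0.380). The probe that passed was above background on 3 Activin A arrays and 0 with BMP4. It was thus tested only through the treatment where it was high and adds no support. By its brightest probe, CSNK1A1 missed the threshold when any array but the first with BMP4 was left out, so that 1 gene of the list, GSK3B, was then lower. AXIN1, the constitutive relative of AXIN2, had a log2 difference of 0.06 ± 0.09 SE (limma adjusted p = 0.636). APC and 9 other genes of the list, GSK3A and the tankyrase genes TNKS and TNKS2 among them, were not above background on any array.

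Counting each gene of these 3 lists once, 13 of 42 tested genes were higher (31.0%) and 9 lower (21.4%), beside 17.6% and 18.1% of all genes. The lists were not tested as sets, and nothing is read from these shares about the pathway as a whole.

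**Figure D3:**
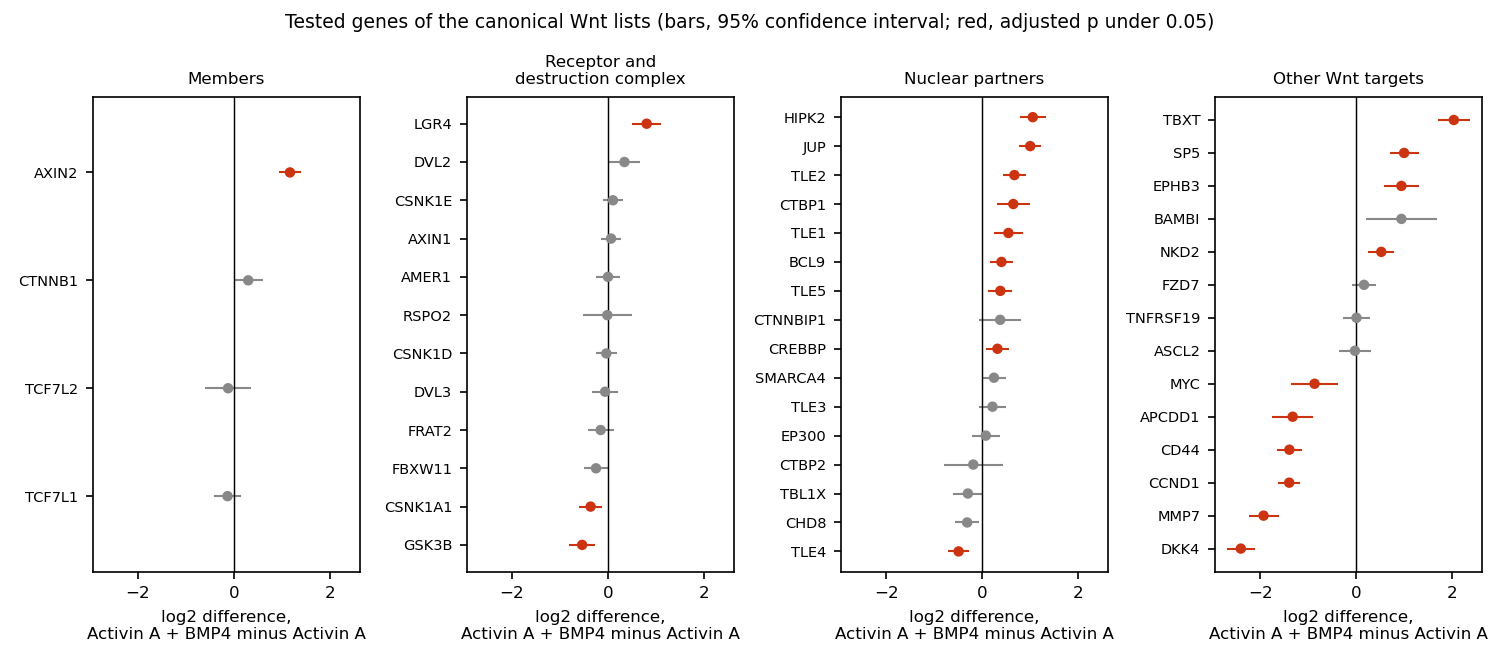
Log2 difference, Activin A + BMP4 minus Activin A, of each tested gene of the member list and of the 3 further Wnt lists; points are limma estimates from 3 arrays a group, bars are 95% confidence intervals, and red marks an adjusted p under 0.05. AXIN2 (1.16) is the one red member; nuclear partners lie mostly to the right of 0, and other targets span from DKK4 (-2.40) to TBXT (2.03), with the MMP7 point a fitted value for which the text gives only a bound.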

How the data were processed

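The authors deposited linear intensity values for each probe, without normalization per the file headers; 22.2% to 24.6% of them were negative per array, so background had been subtracted. The deposited detection score, which the file headers call a p-value, rose with the signal (Spearman correlation at least 0.980 on each array) and was read as 1 minus that p. The authors' deposited log2 values served as an alternative; their centring is unknown. No scanner software is named in the labels or headers.

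Background correction and quantile normalization used neqc (limma 3.58.1, R 4.3.3; offset 16, negative controls inferred from detection p). Probes with a detection p under 0.01 on at least 3 of 6 arrays were tested (10116 of 24526) with lmFit and eBayes, treatment as the only term, two-sided, with p adjusted by Benjamini-Hochberg over the whole set of tested probes, at 0.05. The platform annotation named a gene for 21834 probes; symbols of 21813 were updated by gene ID. A gene was represented by its brightest tested probe, and other member probes are given beside it. A probe above background in no array of 1 treatment has only a bound there: the mean of the other treatment over, per array, the higher of the lowest detected value and its own. Such a bound takes no account of the spread between arrays, and its mean can include undetected arrays. Named list genes are those past the threshold with the largest differences, up to 4 per direction. The members and lists were chosen with earlier results of these data known. The fit was tested on simulated data. Alternatives were normexp with an offset of 50, no background correction (signals floored at 1), cyclic loess, median scaling, the authors' values, 2 other filters, each array left out, the replicate number as a block, and the chip as a random block. The number of arrays, 3 per treatment, limits the precision.

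Replicate numbers were not taken as pairs: deviations from the treatment means correlated at 0.03, -0.03 and -0.05 between same-numbered arrays.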

Additional observations from a re-analysis of the deposited data

How the results depend on the processing

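AXIN2 kept its direction and its call under every alternative run, with log2 differences from 1.07 under normexp to 1.20 without the third Activin A array and limma adjusted p-values up to 5.79e-04. CTNNB1, TCF7L1 and TCF7L2 passed under none, and of 59 comparisons of a tested member with an alternative, 2 turned the sign, both of TCF7L2 (leaving out 1 array gave -0.24 to 0.10). With no filter, 3 members in place of 1 passed upward (AXIN2, LGR5 and NKD1) and 7 other Wnt targets in place of 4, since more probes were tested, beside 7.64% of all genes. Each added gene was below background on all Activin A arrays, so none of these has a measured size. Nuclear partners lower numbered 2 in place of 1 under normexp, median scaling and detection on all 6 arrays; the cause was not tested. With each array left out in turn, 5 to 7 nuclear partners were higher and 1 to 2 lower, and 1 to 2 genes of the receptor and destruction complex were lower. The 5 nuclear partners were counted without the first Activin A array. GSK3B was the 1 lower gene of the complex when any array other than the first with BMP4 was left out. Of 327 comparisons of another called list gene, 0 turned the sign and 24 missed the threshold, in CREBBP, TLE5, CSNK1A1 and BCL9. Fitted differences of probes below background in a treatment depended on the correction: that of MMP7, which passed wherever it was tested, was -1.93, with -1.15 under normexp, -3.05 in the authors' values and -6.39 uncorrected with a floor of 1. The median over all probes stayed between -0.0253 and 0.0114. Bounds under normexp were added after the data were seen. Signal over background limits LEF1, NKD1, RNF43, LGR5 and the dim CTNNB1 probe.

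With the replicate block, AXIN2 had a limma adjusted p of 5.79e-04, 1681 probes were higher and 1652 lower, and of the called list genes CREBBP missed the threshold (0.0714). With chip as a random block, at a consensus correlation of 0.0149, these were 1728 and 1774. Chip and treatment cannot be told apart here, so this block cannot remove a chip effect from the treatment difference.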
